A study of Mus musculus with 10 samples.

Results

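The transcription factors that specify and maintain oral and surface epithelium were examined in the first pharyngeal arch (PA1) of Grhl2-/- mouse embryos. The set holds 8 genes, *Trp63*, *Tfap2c*, *Pitx1*, *Klf5*, *Elf3*, *Ehf*, *Ovol1* and *Ovol2*, out of 22114 genes in the count table. The genes were chosen by name as regulators of epithelial identity. *Ehf* was nearly free of reads, so 7 of the 8 were among the 14561 genes tested. PA1 was dissected from male E10.5 embryos on a C57BL/6 background (C57BL/6J in the methods of the study), 5 wild-type (Grhl2+/+) and 5 Grhl2-/-, and each library was made from the arch tissue of 1 embryo as a stranded, ribosomal RNA-depleted total RNA library. The Grhl2 allele is a constitutive targeted null, so every tissue of the embryo lacks the factor from the start of development. The question asked here is whether the regulators of epithelial identity other than *Ovol1* and *Ovol2* also changed in the absence of *Grhl2*.

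The arch is a core of mesenchyme and mesoderm wrapped in a thin epithelium of surface ectoderm and pharyngeal endoderm. Epithelial fate in this covering is set by p63 (encoded by *Trp63*), AP-2 and Pitx factors, and is held by Grainyhead-like factors, ETS factors of the epithelial subfamily and the Ovo-like zinc finger repressors, which keep mesenchymal genes silent. Grhl2 is a Grainyhead-like factor that binds at genes of junctions and other epithelial structures. Because whole arches were sequenced, fewer epithelial cells and less RNA per epithelial cell cannot be told apart in any value given here.

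Libraries held 22188454 to 28801378 reads assigned to genes, so that 3 reads corresponded to between 0.104 and 0.136 CPM (read counts scaled to a common library size). *Grhl2* itself fell from 35.6 ± 3.29 to 4.53 ± 1.45 CPM (SD, n = 5 each; log2 fold change -3.02), with no overlap between the groups. At a false discovery rate (FDR) of 0.01 in limma-voom, 158 of the 14561 genes tested were lower (1.09%) and 128 were higher (0.879%) in Grhl2-/- arches. With single arches left out these counts ran from 110 to 249 and from 42 to 143, the fewest of both without wild-type replicate 5, and without wild-type replicates 1 and 2 they were 90 and 19. The simple epithelial keratins *Krt8*, *Krt18* and *Krt19* were read in every arch, and their summed level ran from 94.7 to 152 CPM in wild-type and from 80.4 to 146 CPM in Grhl2-/- arches. None of the 12 mesenchymal markers passed the test in limma-voom or edgeR, and 3 were lower in DESeq2 (unadjusted p below 0.05 in 4 lower and 1 higher). Among markers of other tissues, those of sensory neurons were uneven within the wild-type group, at 37.7 and 41.4 CPM summed in replicates 2 and 1 and between 230.5 and 859.6 CPM in the other 8 arches. Pituitary markers summed to 3.82 and 7.65 CPM in Grhl2-/- replicates 1 and 4 and to between 0.80 and 1.31 CPM in the other 8. The 8 sensory neuron markers, 5 of the 6 glia markers and the 3 tested pituitary markers had positive log2 fold changes (medians 1.92, 0.86 and 2.74). None was called by limma-voom or edgeR, 1 neuronal and 1 pituitary marker were called by DESeq2, and at an unadjusted p below 0.05 there were 2, 0 and 1. All 6 endothelial markers had a positive and all 6 erythroid markers a negative log2 fold change (medians 0.14 and -0.32). None passed in limma-voom or edgeR, 2 endothelial markers were higher in DESeq2, and at an unadjusted p below 0.05 there were 4 endothelial markers higher and 3 erythroid markers lower.

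Of the 7 regulators tested, 3 were called lower in Grhl2-/- arches (*Tfap2c*, *Ovol1* and *Ovol2*) and none higher, against 1.09% and 0.879% of all genes tested, or 1.96% in either direction. Both edgeR and DESeq2 gave the same counts of regulators. Over all genes tested, edgeR called 161 lower and 142 higher, and DESeq2 called 553 lower and 520 higher. At an unadjusted p below 0.05, 6 of the 7 were lower and 0 higher, where 14.3% of all genes tested were lower. *Tfap2c* was thus the regulator outside the Ovo-like pair that passed the test, and it fell 1.99-fold. The fitted log2 fold change was negative for all 7, with a median of -0.49 beside 0.01 over all genes tested. *Trp63*, *Pitx1*, *Klf5* and *Elf3* did not pass, and their fitted log2 fold changes lay between -0.49 and -0.19. The same 3 regulators were also those whose 5 wild-type values all lay above their 5 Grhl2-/- values, an arrangement seen for 4.66% of all genes tested, while 4.22% had the reverse arrangement and no regulator did.

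**Figure D1:**
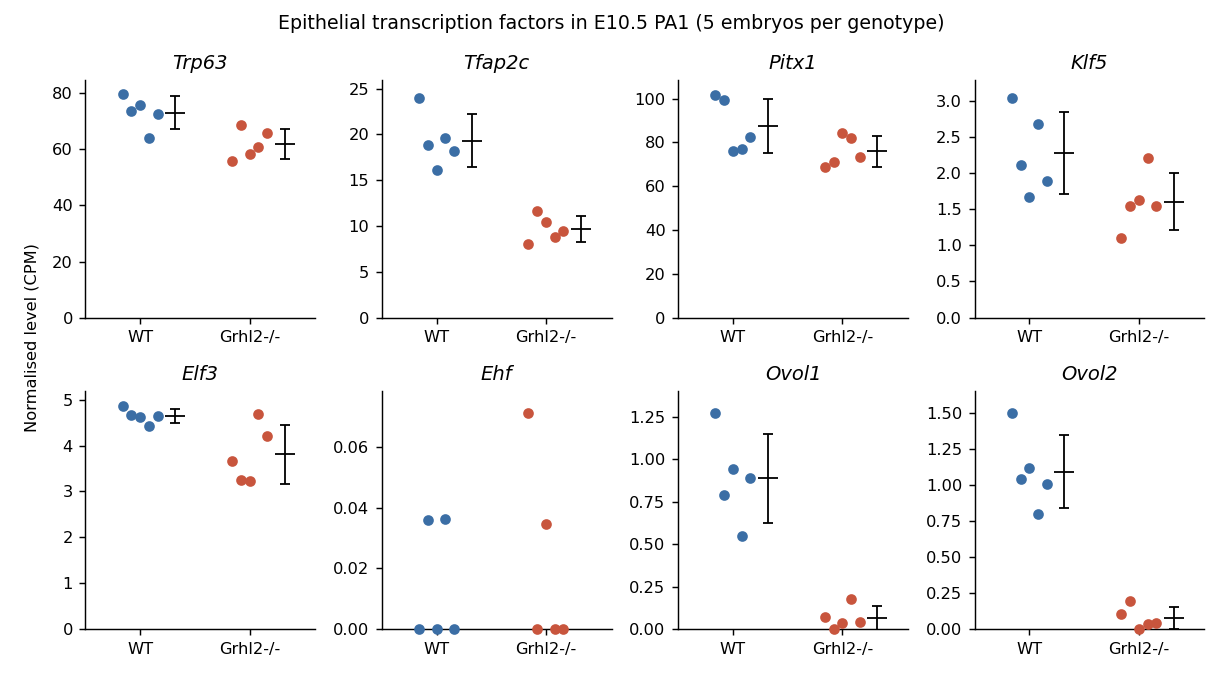
Level of each of the 8 regulators in each arch, in CPM on linear axes that start at 0 and differ between genes, for wild-type (WT) and Grhl2-/- embryos (n = 5 each; points are arches and bars are the mean and SD, left out for Ehf). The groups are apart for Tfap2c, Ovol1 and Ovol2 and overlap for Trp63, Pitx1, Klf5 and Elf3, while Ehf stays at 0 to 2 reads per arch.

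*Trp63* encodes p63, the p53-family factor that commits simple surface ectoderm to a stratified epithelium. It lies at chr16:25683763-25892102 on the plus strand (GRCm38, GENCODE M21). Wild-type arches held 79.6, 73.7, 75.7, 63.9 and 72.8 CPM in replicates 1 to 5, and Grhl2-/- arches held 55.8, 68.8, 58.4, 61.0 and 65.7 CPM. Wild-type replicate 4 lay below Grhl2-/- replicates 2 and 5, so the groups overlapped. The means were 73.1 ± 5.78 and 61.9 ± 5.31 CPM, and the log2 fold change was -0.24 (95% confidence interval -0.39 to -0.09). This did not pass the threshold (limma-voom FDR = 0.0566), nor in DESeq2 (FDR = 0.0132). *Trp63* was therefore read at 1565 to 2171 counts per arch in both genotypes, and the interval excludes a change as large as that of *Tfap2c*. The counts are per gene and pool all *Trp63* isoforms.

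*Tfap2c* encodes AP-2gamma, an activator of surface ectoderm and trophoblast genes, and lies at chr2:172549593-172558622 on the plus strand. Its levels were 23.9, 18.8, 16.1, 19.6 and 18.2 CPM in wild-type replicates 1 to 5 and 8.06, 11.6, 10.4, 8.75 and 9.46 CPM in Grhl2-/- replicates 1 to 5. The lowest wild-type arch, replicate 3, was above the highest Grhl2-/- arch, replicate 2. The mean fell from 19.3 ± 2.89 to 9.66 ± 1.40 CPM, a log2 fold change of -0.99 (95% confidence interval -1.26 to -0.72, limma-voom FDR = 0.000791). The gene was read at 450 to 538 counts in wild-type and 226 to 301 counts in Grhl2-/- arches, well above the limit of detection. It was called lower when any single arch was left out, with log2 fold changes of -1.06 to -0.92 and FDR values of 0.00066 to 0.00338.

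The different behaviour of these 2 ectodermal factors was tested within each arch. The log2 level of *Trp63* minus that of *Tfap2c* averaged 1.93 in wild-type and 2.69 in Grhl2-/- arches, and the difference of 0.76 gave p = 0.00794 in an exact two-sided permutation test over all assignments of the arches to genotypes, which is the smallest p this design allows. The difference ranged from 0.70 to 0.83 when single arches were left out. *Tfap2c* thus fell relative to *Trp63* in the same tissue. This pair and the pair of Ovo-like factors were the 2 pairs compared, and the exact permutation p of the first was 0.0159 after Benjamini-Hochberg adjustment over both.

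*Pitx1*, a paired-class homeobox gene of the oral ectoderm that is also active in mandibular mesenchyme, lies at chr13:55825051-55836192 on the minus strand. Wild-type arches held 102, 99.3, 76.2, 77.2 and 82.4 CPM in replicates 1 to 5, and Grhl2-/- arches 68.8, 71.0, 84.5, 82.2 and 73.1 CPM. Wild-type replicates 1 and 2 stood above every Grhl2-/- arch, while the other 3 wild-type arches lay among the mutants. The means of 87.4 ± 12.3 and 75.9 ± 7.0 CPM gave a log2 fold change of -0.19 (95% confidence interval -0.40 to 0.01, limma-voom FDR = 0.200). The same wild-type replicates 1 and 2 were the arches low in sensory neuron markers. Without them the log2 fold change of *Pitx1* was -0.07 (FDR = 0.675). Because the epithelium and the mesenchyme both contribute *Pitx1* transcripts, a change limited to the epithelium was not measured separately.

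*Klf5* encodes a Krüppel-like zinc finger factor of proliferating epithelial cells and lies at chr14:99298691-99315036 on the plus strand. It was a low-abundance gene, with 3.04, 2.12, 1.67, 2.69 and 1.90 CPM in wild-type and 1.11, 1.55, 1.63, 2.21 and 1.54 CPM in Grhl2-/- replicates 1 to 5. Grhl2-/- replicate 4 lay above wild-type replicates 2, 3 and 5. The log2 fold change of -0.49 (95% confidence interval -0.96 to -0.02) did not pass (limma-voom FDR = 0.161). At 31 to 74 counts per arch, the interval reaches from almost no change to nearly the size of that of *Tfap2c*.

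*Elf3*, an ETS factor of the epithelial subfamily that is active in simple and differentiating epithelia, lies at chr1:135253575-135258568 on the minus strand. Wild-type arches were tightly grouped at 4.86, 4.67, 4.64, 4.43 and 4.65 CPM in replicates 1 to 5, and Grhl2-/- arches were spread over 3.67, 3.25, 3.22, 4.70 and 4.21 CPM. Only Grhl2-/- replicate 4 reached the wild-type range. The means of 4.65 ± 0.151 and 3.81 ± 0.637 CPM gave a log2 fold change of -0.30 (95% confidence interval -0.55 to -0.05, limma-voom FDR = 0.122).

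*Ehf* is the closest relative of *Elf3* and acts in the same ETS subfamily. It lies at chr2:103263433-103303278 on the minus strand. Wild-type replicates 2 and 4 each held 1 read of *Ehf*, Grhl2-/- replicates 1 and 3 held 2 reads and 1 read, and the other 6 arches held 0. All values are at or under 3 reads, so no level and no change of *Ehf* was detectable at this depth, and the gene was not tested.

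*Ovol1* and *Ovol2* encode Ovo-like zinc finger repressors that hold epithelial cells back from a mesenchymal programme. They lie at chr19:5549136-5560646 and chr2:144305175-144332146, both on the minus strand. *Ovol1* was read at 28, 22, 27, 15 and 22 counts in wild-type and at 2, 0, 1, 5 and 1 counts in Grhl2-/- replicates 1 to 5. *Ovol2* was read at 33, 29, 32, 22 and 25 counts in wild-type and at 3, 5, 0, 1 and 1 counts in Grhl2-/- replicates 1 to 5. No Grhl2-/- arch reached the lowest wild-type arch for either gene, and most mutant values were at or under 3 reads.

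The mean level of *Ovol1* fell from 0.888 ± 0.263 to 0.0645 ± 0.0682 CPM (log2 fold change -3.76, 95% confidence interval -4.88 to -2.63, limma-voom FDR = 0.00152). That of *Ovol2* fell from 1.09 ± 0.255 to 0.0750 ± 0.0768 CPM (log2 fold change -4.01, 95% confidence interval -5.13 to -2.90, limma-voom FDR = 0.00102). Both were called when any single arch was left out. Neither passed an FDR of 0.01 with the number in the sample titles as a block (log2 fold change -3.09 and FDR 0.0292 for *Ovol1*, -4.30 and 0.0157 for *Ovol2*). Grhl2-/- replicates 2 and 5 have numbers that no wild-type arch shares, so that fit takes the genotype difference from the other mutants only. The 2 genes were not shown to differ from each other: the log2 level of *Ovol1* minus that of *Ovol2* averaged -0.32 in wild-type and -0.12 in Grhl2-/- arches (difference 0.19, exact two-sided permutation p = 0.897). This difference ran from -0.30 to 1.04 when single arches were left out and turned negative without Grhl2-/- replicate 3 or replicate 4, so at these counts an unequal loss was not measurable.

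**Figure D2:**
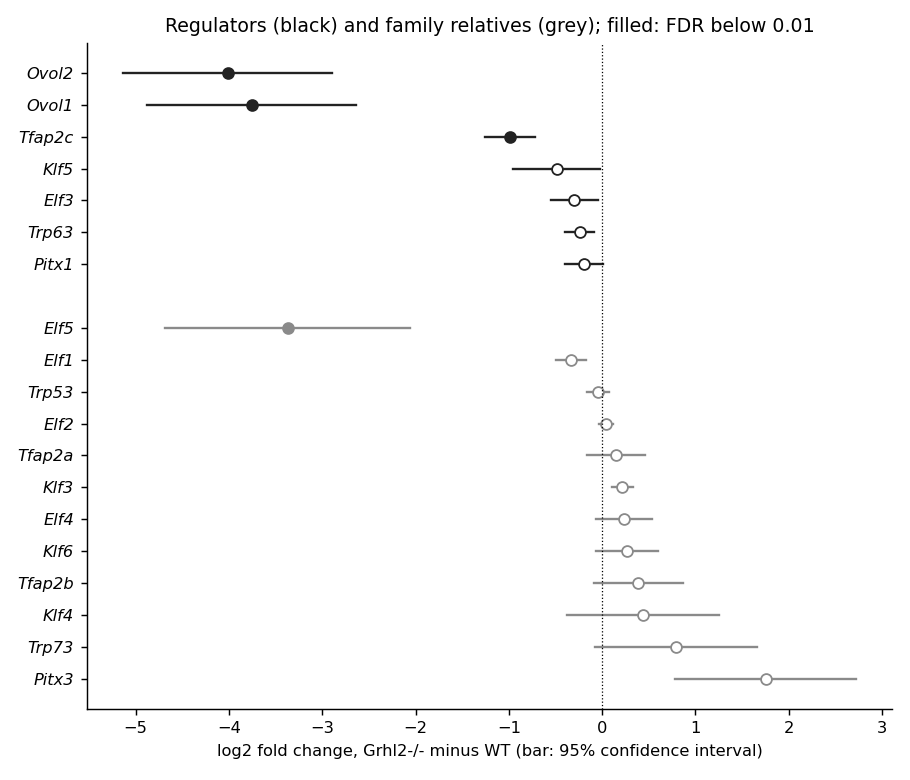
Log2 fold change (Grhl2-/- against wild-type) of the 7 tested regulators in black and 12 of the 13 tested family relatives in grey (points are limma-voom estimates, filled where called, and bars 95% confidence intervals). Ovol1 and Ovol2 lie near -4, Tfap2c near -1 and the other 4 regulators between -0.49 and -0.19, and among the relatives Elf5 alone is filled.

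The 2 Ovo-like genes are paralogs, and their most similar coding stretch shows that 50-base reads could still be told apart. The stretch covers 90 bases of coding exon 4 in each gene, read 5′ to 3′ on the coding (minus) strand from GRCm38 at chr19:5551108-5551197 and chr2:144305774-144305863, with the 12 bases that differ in capitals.
Ovol1: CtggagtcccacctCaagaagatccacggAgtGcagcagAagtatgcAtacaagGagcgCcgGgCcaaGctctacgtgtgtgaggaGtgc
Ovol2: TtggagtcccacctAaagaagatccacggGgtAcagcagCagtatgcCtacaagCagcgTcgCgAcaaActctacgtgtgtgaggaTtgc
The differences are spread along the stretch, which is 86.7% identical. The longest run shared by the 2 coding sequences was 20 bases, shorter than a read. The longest runs shared with other relatives were 23 bases for *Trp63* with *Trp73*, 17 for *Tfap2c* with *Tfap2a*, 14 for *Elf3* with *Ehf* and 11 for *Klf5* with *Klf4*. Transcripts on the opposite strand overlap exons of *Elf3*, *Pitx1*, *Ovol1* and *Ovol2*. Of all 50-base stretches of *Ovol1* and *Ovol2*, 19.6% and 12.2% also occur on the opposite strand of another annotated gene, and the corresponding shares were 0 for *Trp63* and *Tfap2c*. The libraries were stranded and the name of the deposited count table points to counting on the reverse strand, which would keep such reads apart, but the setting itself is not described. Strand does not separate *Pitx1* from the non-coding transcript *Gm28760*, which shares 108 exon bases on the same strand (2.34% of the 50-base stretches of *Pitx1*).

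Per kilobase of exon, *Pitx1* was the most abundant of the regulators in wild-type arches at 32.9 ± 4.63 CPM per kb, followed by *Trp63* at 8.72 ± 0.689, *Tfap2c* at 5.25 ± 0.786 and *Elf3* at 2.10 ± 0.0681 CPM per kb. These 4 did not overlap with their neighbours in this order. *Ovol2*, *Klf5* and *Ovol1* followed at 0.517, 0.439 and 0.255 CPM per kb, where neighbouring genes overlapped between arches. In Grhl2-/- arches *Tfap2c* was at 2.63 ± 0.381 CPM per kb, still above *Elf3* at 1.72 CPM per kb, while *Ovol2* and *Ovol1* were at 0.0355 and 0.0185 CPM per kb.

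Wild-type replicate 1, the shallowest library at 22188454 reads, held the highest level of all 7 tested regulators among wild-type arches. It was also 1 of the 2 wild-type arches low in sensory neuron markers, and its erythroid markers summed to 6244 CPM, against 3674 to 4499 CPM in the other wild-type and 2892 to 3909 CPM in the Grhl2-/- arches. The part of these features in the levels was not tested beyond leaving the arches out. Without both wild-type arches low in sensory neuron markers, the same count of 3 regulators was called, and *Tfap2c* had a log2 fold change of -0.91 (limma-voom FDR = 0.00299).

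To set the regulators against other epithelial genes, their log2 level was taken relative to the mean log2 level of *Krt8*, *Krt18* and *Krt19* in the same arch. This reference averaged 4.85 ± 0.308 in wild-type and 4.71 ± 0.355 in Grhl2-/- arches (exact two-sided permutation p = 0.492). The 3 keratins were chosen with their levels known, and a further simple keratin, *Krt7*, was itself lower in Grhl2-/- arches (18.3 to 6.47 CPM, log2 fold change -1.62, limma-voom FDR = 0.00451). The call of *Krt7* was present in 4 of the 10 fits that left out an arch. *Ovol1* and *Ovol2* fell by 3.65 and 3.85 log2 units relative to the keratins, without overlap between the groups (exact two-sided permutation p = 0.00794 for each, the smallest possible). With a prior count of 2 in place of 0.5 the differences were -2.73 and -2.94, with the same exact permutation p, so their size depends on the prior count. After Benjamini-Hochberg adjustment over the 7 tests made, the exact permutation p was 0.0278 for each.

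*Tfap2c* stood at -0.03, -0.90, -1.23, -0.29 and -0.53 relative to the keratins in wild-type replicates 1 to 5 and at -2.13, -0.97, -0.94, -1.90 and -1.32 in Grhl2-/- replicates 1 to 5. Wild-type replicate 3 lay within the mutant values, so the groups overlapped on this scale. That arch had the highest summed keratin level of all 10, 151.8 CPM. Grhl2-/- replicates 1 and 4, lowest on this scale, had keratin sums of 145.7 and 132.9 CPM, against 80.4 to 93.2 CPM in the other mutants. The part of the varying reference in these values was not tested. The difference was -0.86 (exact two-sided permutation p = 0.0317, and 0.0741 after Benjamini-Hochberg adjustment over the 7 tests). It ranged from -1.02 to -0.69 with single arches left out, with p below 0.05 in 3 of those 10 fits. *Trp63*, *Pitx1*, *Klf5* and *Elf3* differed by -0.10, -0.06, -0.36 and -0.16 (exact permutation p of 0.659, 0.802, 0.365 and 0.437), and the sign for *Trp63* and *Pitx1* turned when single arches were left out.

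The outcome on this scale depended on which epithelial genes served as the reference. A second reference was the other structural epithelial genes, many of them lower in Grhl2-/- arches. It held junction, adhesion, protease, protease inhibitor, sorting and splicing genes and the keratins *Krt5*, *Krt7*, *Krt14* and *Krt15*. Against it, *Tfap2c* was 0.80 log2 units higher in Grhl2-/- than in wild-type arches, and *Trp63*, *Pitx1*, *Klf5* and *Elf3* were 1.55, 1.597, 1.29 and 1.49 higher (exact permutation p = 0.00794 for each). On that reference the differences of *Ovol1* and *Ovol2* were -1.997 and -2.19 (exact permutation p = 0.00794 for each). These differences are against the mean of a list in which most genes were themselves called lower. A gene that changed little lies above such a mean, so the p-values of the higher regulators add nothing beyond that. Single structural genes lay on either side: the log2 fold change was 0.33 for *Krt14*, -0.93 for *Spint1* and -3.90 for *Ap1m2*. The summed level of all 24 structural genes, keratins included, was 638.5 to 803.8 CPM in wild-type and 337.6 to 463.4 CPM in Grhl2-/- arches.

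**Figure D3:**
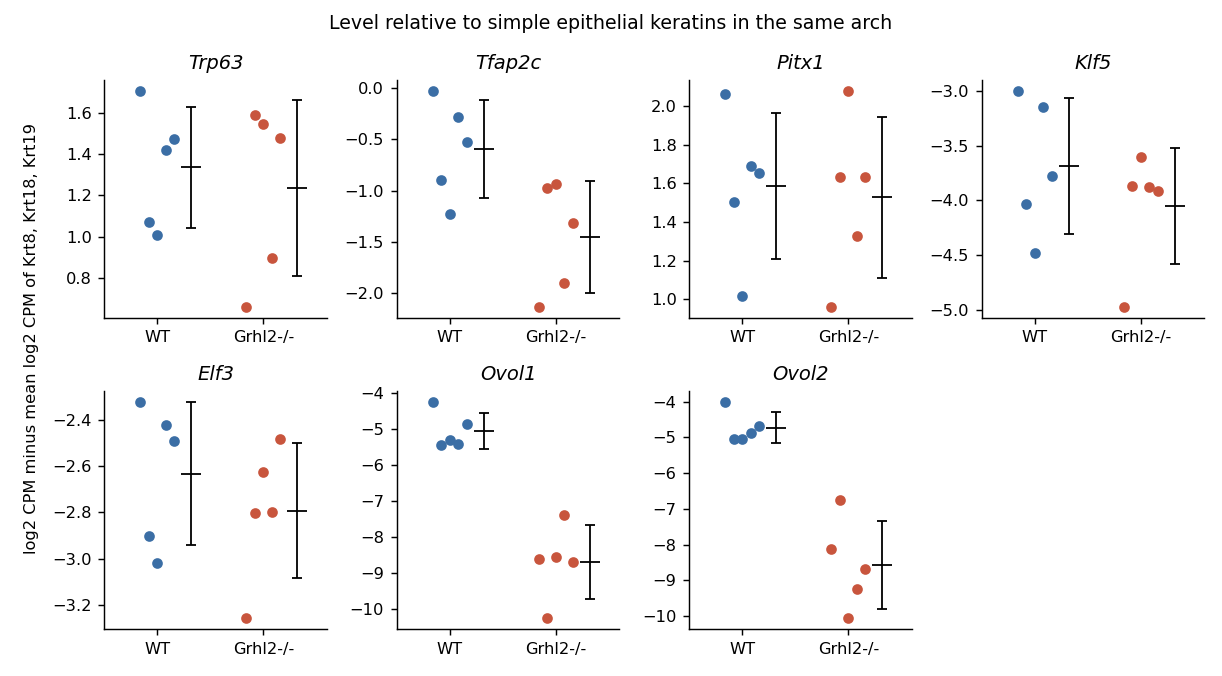
Log2 level of each tested regulator relative to the mean of Krt8, Krt18 and Krt19 in the same arch, for wild-type and Grhl2-/- embryos (n = 5 each; points are arches, bars are the mean and SD, and axes differ between genes). Ovol1 and Ovol2 are apart between genotypes, while wild-type replicate 3 places Tfap2c within the mutant values.

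The other members of the same gene families were examined as a list of 17 relatives, of which 13 were tested. Only *Elf5* was called lower and none was called higher by limma-voom, and the median log2 fold change of the list was 0.22. By edgeR 0 were called in either direction, by DESeq2 2 were lower and 1 higher, and at an unadjusted p below 0.05 there were 2 in each direction. *Elf5*, an ETS factor of the epithelial subfamily related to *Elf3* and *Ehf*, was read at 15, 6, 7, 10 and 8 counts in wild-type and 0, 0, 0, 3 and 1 counts in Grhl2-/- replicates 1 to 5. The groups did not overlap, but the counts were low and the call was near the threshold (log2 fold change -3.37, limma-voom FDR = 0.00798). It passed in 1 of 10 fits with an arch left out, and edgeR gave an FDR of 0.0169.

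The AP-2 relatives *Tfap2a* and *Tfap2b*, singled out after the result for *Tfap2c* was seen, did not pass the test. *Tfap2a* measured 11.7 and 13.3 CPM in wild-type and Grhl2-/- arches (limma-voom FDR = 0.510), and *Tfap2b*, a gene of the arch mesenchyme as well, measured 40.9 and 54.2 CPM (limma-voom FDR = 0.258). Among the most abundant relatives, *Trp53* was at 175 and 170 CPM and *Elf2* at 150.3 and 154 CPM. The Krüppel-like factor *Klf3*, at 72.0 and 83.7 CPM, had a limma-voom FDR of 0.0323 and was not called.

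Of 22 other epithelial transcription factors, 21 were tested. *Grhl2* was called lower and *Foxi3* higher, and the median log2 fold change was 0.08. DESeq2 called 1 lower and 2 higher, and at an unadjusted p below 0.05 there were 2 lower and 5 higher. *Foxi3*, a forkhead factor of pharyngeal and placodal ectoderm that acts in arch and tooth development, was read at 17, 25, 26, 14 and 22 counts in wild-type and at 89, 69, 78, 43 and 92 counts in Grhl2-/- replicates 1 to 5. Every Grhl2-/- arch exceeded every wild-type arch. The level rose from 0.795 to 2.73 CPM (log2 fold change 1.72, limma-voom FDR = 0.00556). The log2 fold change was 1.57 to 1.92 with single arches left out, and the call was present in 2 of those 10 fits. It was 1.78 (FDR = 0.0486) without both wild-type arches low in sensory neuron markers. The other Grainyhead-like factors were not called, with *Grhl3* at 9.57 and 11.3 CPM (limma-voom FDR = 0.302) and *Grhl1* at 0.651 and 0.402 CPM (log2 fold change -0.99, limma-voom FDR = 0.225). The *Grhl1* groups narrowly did not overlap (lowest wild-type arch 0.558 CPM, highest Grhl2-/- arch 0.554 CPM), at 13 to 21 and 1 to 16 counts per arch. The abundant factors *Dlx3* (42.6 and 43.9 CPM) and *Sox9* (82.6 and 76.9 CPM) did not pass either. The study counted SOX9-positive neural crest cells in the arch mesenchyme, so the *Sox9* level is not that of the epithelium alone.

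Because *Trp63* itself did not pass, 19 genes known as p63 targets in ectoderm were read as a further list. Of these, 6 were called lower and 1 higher, against 1.09% and 0.879% of all genes tested, with a median log2 fold change of -0.28. The counts were 6 and 1 by edgeR, 8 and 1 by DESeq2, and 10 and 4 at an unadjusted p below 0.05. The list shares *Krt5*, *Krt14* and *Cdh3* with the structural epithelial genes, so the lists are not independent. Those lower included the basal keratin *Krt5* (log2 fold change -2.64), the laminin chain *Lamb3* (-2.0), the cell cycle regulator *Sfn* (-1.42), the hemidesmosome integrin *Itgb4* (-1.15) and the desmosome-associated *Perp* (-0.46). The partner integrin of *Itgb4*, *Itga6*, rose from 142.5 to 182 CPM (log2 fold change 0.36, limma-voom FDR = 0.000461). Both calls were present with any single arch left out, and with the number in the sample titles as a block the FDR was 0.0242 for *Itgb4* and 0.0119 for *Itga6*.

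The abundant p63 targets that did not pass were *Fgfr2* at 178 and 186 CPM, *Fras1* at 117 and 141 CPM, *Cdh3* at 108 and 87.7 CPM and *Itga3* at 67.1 and 87.2 CPM. *Krt14*, the partner of *Krt5* in basal cells, was at 9.60 and 11.9 CPM (limma-voom FDR = 0.144). The count of 6 lower targets fell to 1, *Sfn*, without wild-type replicates 1 and 2, and was 3 to 5 with single arches left out, so that each omission lost at least 1 call. For *Sfn* the FDR without both arches was 0.00495.

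Structural epithelial genes are given here to set the scale for the regulators. Of 24 tested, 15 were called lower and none higher (14 and 0 by edgeR, 17 and 0 by DESeq2, 19 and 1 at an unadjusted p below 0.05), with a median log2 fold change of -1.62. The range of those called ran from -3.90 for *Ap1m2*, a clathrin adaptor subunit of epithelial sorting, to -0.93 for *Spint1*, a serine protease inhibitor. *Spint1* did not pass in edgeR (FDR = 0.0111) and passed in 3 of the 10 fits that left out an arch. For the junction genes *Cdh1* and *Epcam* the change was -2.47 and -2.51. None of the 3 reference keratins passed with any of these tools, nor at an unadjusted p below 0.05, and their median was -0.07. Among the other keratins of the list, *Krt7* and *Krt5* were called (each lost without both wild-type arches low in sensory neuron markers, and *Krt5* present in 2 of the 10 fits that left out an arch), while *Krt15*, whose groups did not overlap, was not (log2 fold change -1.56, limma-voom FDR = 0.0124).

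**Figure D4:**
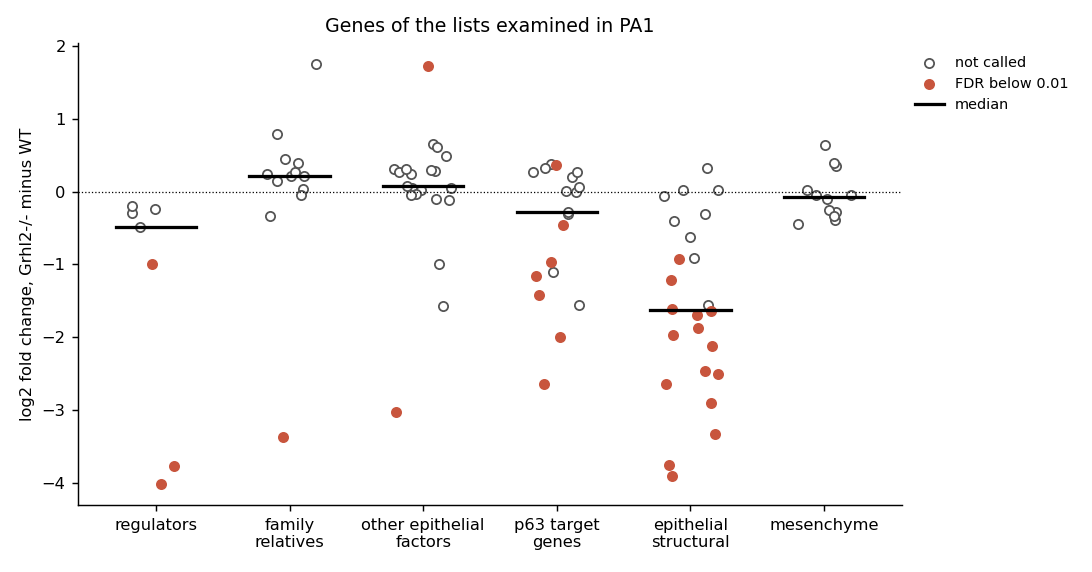
Log2 fold change (Grhl2-/- against wild-type) of every tested gene in 6 lists, with genes called at an FDR of 0.01 marked and the median of each list drawn. The median is -1.62 for structural epithelial genes, -0.49 for the regulators, -0.28 for p63 targets, 0.08 for other epithelial factors, -0.08 for mesenchymal markers and 0.22 for family relatives.

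The genes whose levels followed each regulator most closely over the 10 arches were found by the mean absolute difference of their centred log2 CPM, among genes of at least 1 CPM on average. The arches include both genotypes, so a shared genotype difference enters this measure. For *Tfap2c* they were *Figf*, a vascular growth factor gene (0.114, from 8.83 to 4.49 CPM), and *Tmem30b*, a lipid flippase subunit gene (0.126, from 11.8 to 6.82 CPM). For *Trp63* they were *Ctdspl* (0.0512) and *Tmem173* (0.0604). *Ovol1* was closest to *Ap1m2* (0.519) and the membrane protease gene *St14* (0.538), and *Ovol2* to *Plch2* (0.561) and *Ap1m2* (0.571). The larger values for the Ovo-like genes go with their few reads. *Pitx1* was closest to *Arhgef40* and *Mmp2* (0.066 and 0.067), *Klf5* to *Cdh15* and *Etv4* (0.138 and 0.151) and *Elf3* to *Stambpl1* and *Cdc42bpg* (0.0891 and 0.0935).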

How the data were processed

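Reads (50-base, single-end) of 10 whole PA1 libraries were aligned and assigned to genes by the authors; the submitters' processing notes name STAR, featureCounts, edgeR 3.18.1 and limma 3.32.7, and the annotation release is not given in the sources used here. The strand setting is given only as far as the name of the count table points to the reverse strand. The deposited table holds raw counts per gene, with 0 columns outside the samples. A second deposited table repeats the counts beside the authors' own fold changes, average expression and adjusted p-values, which were not used.

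Counts were filtered to genes with at least 10 counts in 1 arch or more (14561 of 22114), scaled by TMM and fitted with limma-voom (limma 3.58.1, edgeR 4.0.16, R 4.3.3) with genotype as the term, and p-values were adjusted over all genes tested by Benjamini-Hochberg. Calls are at an FDR below 0.01. CPM use TMM-scaled library sizes, log2 levels a prior count of 0.5, and levels per kb the union exon length. Single values were tested by exact two-sided permutation over all assignments of arches to genotypes. The fit was tested on simulated data. Alternatives were edgeR quasi-likelihood, DESeq2 1.42.0, library size or median-of-ratios scaling, other count filters, quality weights, a prior count of 2, a block on the number that ends each sample title, an FDR of 0.05 and leaving out each arch. A fit without both wild-type arches lowest in sensory neuron markers was added after the data were seen. Ratios with *Ehf*, planned at first, were not computed because it had at most 2 reads per arch.

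The regulators and all gene lists were chosen with earlier results of these data known. Genes named are the regulators, all called genes of a list (the extremes for structural genes) and up to 4 further genes per list by mean CPM, some genes under this rule are not reported here, and exceptions are chosen after their values were seen (*Tfap2a*, *Tfap2b*, *Grhl1*, *Grhl3*, *Krt7*, *Krt14*, *Krt15*). Coordinates and exon lengths are from GENCODE M21 (GRCm38), which matched all 139 list genes. Each library is 1 embryo, so p-values measure the spread between embryos. Counting limits cover counting error only, and library pairs of 1 genotype differed by more than sampling noise.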

Additional observations from a re-analysis of the deposited data

Results flagged for a closer look

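*Klf5* relative to the keratins stood at -4.97 in Grhl2-/- replicate 1 and at -3.92 in the nearest other Grhl2-/- arch, so that this arch was far from the other 4 of its group (gap over range 0.771, against a critical value of 0.71). It was the only such value in 30 groups of 5 arches, where chance gives 1.5. The same arch had the highest summed keratin level of its group, 146 CPM, and the part of this in the value was not tested.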

How the results depend on the processing

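The 3 lower regulators were counted in every fit except that with the number ending each sample title as a block, where 1 was called (*Tfap2c*, FDR = 0.00312, beside 0.0292 for *Ovol1* and 0.0157 for *Ovol2*), and 3 were counted with any arch left out. The labels give this number no meaning, it is not the replicate number used here (wild-type replicates 1 and 4 share it with Grhl2-/- replicate 3), and pairs sharing it correlated between -0.237 and 0.42, with 3 of 5 above 0.1 (mean 0.105, beside -0.0253 over 20 other pairs). The study used littermate controls where it could but does not tie them to this number, so whether it pairs the arches is not known. Grhl2-/- replicates 2 and 5 share it with no wild-type arch, so the genotype difference of the block fit rests on fewer mutants. The part of this in the lost calls was not tested. Over all genes, 158 were lower, against 553 in DESeq2, 69 with the block, 564 at an FDR of 0.05, 90 without both wild-type arches low in sensory neuron markers and 110 to 249 with single arches left out. The 128 higher genes became 520, 60, 559, 19 and 42 to 143, and 204 with quality weights. The block shared 94 of its 129 calls with the 286 main calls. With other epithelial markers as the reference, keratin-relative differences turned to 1.55 (*Trp63*), 0.80 (*Tfap2c*), 1.597 (*Pitx1*), 1.29 (*Klf5*) and 1.49 (*Elf3*). With single arches left out they ran from -0.19 to 0.042 (*Trp63*) and -0.20 to 0.084 (*Pitx1*), and *Ovol1* minus *Ovol2* from -0.30 to 1.04. *Foxi3* (0.0280 with the block) and *Elf5* (0.0730) lost their calls, and p63 targets fell from 6 to 1 lower. The causes were not tested. With 15 to 33 wild-type and 0 to 5 Grhl2-/- counts per arch, the size of the fall of the Ovo-like genes is imprecise.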

Other observations

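Among 7 pharyngeal endoderm markers, *Nkx2-3*, a homeobox gene of pharyngeal endoderm, was called higher in Grhl2-/- arches and none was called lower. It was read at 88, 144, 153, 97 and 107 counts in wild-type and at 278, 211, 262, 177 and 272 counts in Grhl2-/- replicates 1 to 5, without overlap between the groups. The log2 fold change was 0.96 (limma-voom FDR = 0.00715). The log2 fold change was 0.87 to 1.08 with single arches left out, and the call was present in 1 of those 10 fits. It was 0.98 (FDR = 0.0505) without both wild-type arches low in sensory neuron markers. With the number in the sample titles as a block, the FDR of *Nkx2-3* was 0.0333. The list had a median log2 fold change of 0.24 beside 0.01 over all genes tested.

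The ETS factor *Elf1*, a relative of *Elf3* that acts broadly and was chosen after its values were seen, averaged 31.2 ± 1.28 and 24.7 ± 2.77 CPM in wild-type and Grhl2-/- arches. The groups did not overlap, and the gene was not called (limma-voom FDR = 0.0210). *Sox2*, a factor of oral and pharyngeal epithelium that was likewise chosen after its values were seen, averaged 25.0 ± 3.85 and 38.5 ± 6.78 CPM, also without overlap and without a call (limma-voom FDR = 0.0202).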
